A study of Homo sapiens with 12 samples.

Results

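The comparison is between KYSE510 and TE7 cells after 6 h of THZ1 at 50 nM and the same lines after 4 h at the same dose, the middle step of a time course. Its members are the 4 libraries labelled with that dose and those times, of 12 libraries in all, and they were paired by cell line. KYSE510 and TE7 are human lines derived from esophageal squamous cell carcinoma, cultured in RPMI-1640 (KYSE510) or DMEM (TE7). THZ1 is a covalent inhibitor of CDK7, and every library compared here carries it, so no untreated library enters and no effect of the drug itself is measured. The groups were THZ1 50 nM for 6 h (KYSE510 and TE7, 1 library each) and THZ1 50 nM for 4 h (KYSE510 and TE7, 1 library each). The 4 libraries of the same lines and dose at 2 h and 12 h served for the estimate of the spread and for values at other times. No vehicle library is labelled 4 h or 6 h, so drug exposure and time in culture cannot be told apart. Polyadenylated RNA was sequenced, and the authors deposited FPKM, fragments scaled by transcript length and by mapped fragments. In bulk libraries of this kind fewer cells with a transcript and less of it per cell cannot be told apart.

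CDK7 is the kinase of the general transcription factor TFIIH. It phosphorylates the C-terminal domain of RNA polymerase II as a gene starts to be transcribed, and it activates the cell-cycle CDKs. When synthesis of mRNA slows, transcripts with a short half-life, such as those of immediate-early genes and many transcription factors, run down first, while long-lived transcripts such as those of ribosomal proteins keep or gain share in the mRNA pool.

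FPKM summed to 535976 in KYSE510 at 6 h and 480787 at 4 h, and to 650109 in TE7 at 6 h and 614395 at 4 h. At 6 h 12442 genes reached 1 FPKM in KYSE510 and 12964 in TE7, against 12784 and 13272 at 4 h. The total of fragments per library is unknown here. Among single-exon genes below 0.3 FPKM, the most frequent ratio of the 6 h to the 4 h value, which reflects the relative worth of 1 fragment, was 1.04 in KYSE510 and 1 in TE7. The authors' upper 95% bound covers error within a library and not differences between cultures. It exceeded the value by 7.52% to 7.92% in the middle gene of these 4 libraries, over genes with 1 FPKM or more. The 6 h and 4 h libraries correlated across the 14797 tested genes at r = 0.992 in KYSE510 and 0.990 in TE7. All 9 squamous markers reached 1 FPKM in all 4 libraries. Of 6 simple or glandular epithelium markers 3 did in KYSE510 and 2 in TE7 at both times. KRT8, one of them, had 520 FPKM in KYSE510 and 245 FPKM in TE7 at 6 h. In each of these libraries 1 of 7 fibroblast, 1 of 6 leukocyte and 0 of 4 endothelial markers did. The leukocyte marker was CD68, at 12.7 FPKM in KYSE510 and 5.59 FPKM in TE7 at 6 h, against 12.4 and 5.68 FPKM at 4 h. PTPRC, which marks leukocytes, was listed at 0 FPKM in KYSE510 at both times and at 0.0387 FPKM at 6 h and 0.0161 FPKM at 4 h in TE7.

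With FPKM as deposited, most genes that differed in both lines beyond counting error stood lower at 6 h than at 4 h, a majority that turned round under 2 of the scalings described further on. The ephrin ligand gene EFNB2, the AP-1 gene FOSL1 and the stress-response phosphatase subunit gene PPP1R15A had 35.0% to 43.7% less FPKM at 6 h than at 4 h. A smaller group stood higher, among them the mRNA export receptor gene NXF1, the gene of the largest RNA polymerase II subunit POLR2A, the Mediator kinase module gene MED13 and IER5L. The lines moved alike for most such genes. No gene passed the limma test with adjusted p below 0.05 over the 8 libraries, so the values below are descriptions of 4 libraries.

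The promoters of 4 of these genes are shown because EFNB2 and PPP1R15A were among the genes furthest below their 4 h level and NXF1 and IER5L among those furthest above it, and because promoter motifs are set against both groups further on. The sequences are RefSeq's on GRCh38.p14 and run from 250 bases before to 50 bases after the gene's start, on the gene's own strand. Capitals mark matches on either strand to any of 6 motifs, which do not exclude each other. The core promoter box is spelled TATAAA and the box bound by NF-Y is spelled CCAAT in this search. The motif bound by the AP-1 family is spelled TGACTCA and the cyclic AMP response element, or CRE, is spelled TGACGTCA here. The box bound by SP1 and its relatives, called the GC box, is spelled GGGCGG and the motif bound by the ETS family is spelled CCGGAAG in turn. EFNB2 lies at chr13:106535613-106535912 on the minus strand, PPP1R15A at chr19:48872171-48872470 on the plus strand, NXF1 at chr11:62805391-62805690 on the minus strand and IER5L at chr9:129178212-129178511 on the minus strand.
EFNB2: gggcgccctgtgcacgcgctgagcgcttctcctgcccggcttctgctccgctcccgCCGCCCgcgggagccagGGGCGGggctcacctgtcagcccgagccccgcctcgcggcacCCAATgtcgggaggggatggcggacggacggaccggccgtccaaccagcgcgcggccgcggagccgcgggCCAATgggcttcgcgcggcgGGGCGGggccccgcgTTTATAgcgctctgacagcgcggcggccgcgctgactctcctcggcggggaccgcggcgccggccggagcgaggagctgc
PPP1R15A: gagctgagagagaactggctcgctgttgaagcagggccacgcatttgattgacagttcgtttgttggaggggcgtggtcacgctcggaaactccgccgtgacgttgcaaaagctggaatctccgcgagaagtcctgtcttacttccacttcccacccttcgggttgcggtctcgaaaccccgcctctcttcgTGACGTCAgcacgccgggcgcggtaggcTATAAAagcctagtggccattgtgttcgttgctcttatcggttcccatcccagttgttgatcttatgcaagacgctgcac
NXF1: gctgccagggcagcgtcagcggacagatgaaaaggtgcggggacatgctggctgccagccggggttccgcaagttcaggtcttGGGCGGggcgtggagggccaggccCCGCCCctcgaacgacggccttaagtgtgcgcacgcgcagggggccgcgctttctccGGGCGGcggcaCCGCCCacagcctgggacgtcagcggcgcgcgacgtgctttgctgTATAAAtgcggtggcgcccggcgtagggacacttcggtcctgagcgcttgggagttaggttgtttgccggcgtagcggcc
IER5L: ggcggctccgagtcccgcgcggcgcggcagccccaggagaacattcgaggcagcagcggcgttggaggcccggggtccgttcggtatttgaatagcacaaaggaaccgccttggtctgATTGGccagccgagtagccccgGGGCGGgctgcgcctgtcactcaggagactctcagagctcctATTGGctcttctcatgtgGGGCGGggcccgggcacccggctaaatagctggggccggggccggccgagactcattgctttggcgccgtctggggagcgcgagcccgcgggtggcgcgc
A match to the TATA box began 30 bases before the start in EFNB2, where it lies on the opposite strand, in PPP1R15A and in NXF1. A CRE motif began 58 bases before the start in PPP1R15A, and IER5L held 2 CCAAT boxes and 2 GC boxes. Such a match thus stood in promoters of genes of both directions.

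EFNB2 encodes ephrin-B2, a membrane ligand of Eph receptors (hg19 chr13:107142079-107187462). It had 37.3 FPKM in KYSE510 and 28.4 FPKM in TE7 at 6 h, against 66.2 FPKM in KYSE510 and 48.1 FPKM in TE7 at 4 h. Both lines were lower at 6 h, by 0.81 log2 units in KYSE510 and 0.74 in TE7 on the log2(FPKM + 1) scale used for all changes here, and the 95% bounds of the 2 times lay apart in each. Both 6 h values lay below both 4 h values. The mean change was -0.78 ± 0.13 (limma standard error, n = 2 lines), with an adjusted p of 0.421 over the 8 libraries. In a limma fit to the 4 libraries alone the adjusted p was 0.00273.

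FOSL1, an AP-1 subunit induced by MAPK signalling (hg19 chr11:65659520-65668044), had 57.0 FPKM in KYSE510 and 165 FPKM in TE7 at 6 h, against 100.2 FPKM in KYSE510 and 254 FPKM in TE7 at 4 h. The line with the higher level at 4 h also had it at 6 h, and each line was lower at 6 h. PPP1R15A (GADD34), which directs a phosphatase to eIF2alpha (hg19 chr19:49375649-49379314), had 9.41 FPKM in KYSE510 and 17.8 FPKM in TE7 at 6 h, against 15.9 FPKM in KYSE510 and 29.4 FPKM in TE7 at 4 h. For both genes the 6 h value lay under the 4 h value of the same line, and the bounds lay apart in both lines. The groups overlapped for both, since their levels differ between the lines.

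The other genes among the 15 furthest below their 4 h level covered several roles. They included AMOTL2, a junction protein and YAP target, at 16.6 FPKM in KYSE510 and 15.7 FPKM in TE7 at 6 h against 28.5 FPKM in KYSE510 and 28.2 FPKM in TE7 at 4 h. IRF9, the DNA-binding part of the interferon-stimulated ISGF3 complex, had 12.2 FPKM in KYSE510 and 6.77 FPKM in TE7 at 6 h, against 21.0 FPKM in KYSE510 and 11.9 FPKM in TE7 at 4 h. DSN1, a kinetochore subunit, had 8.35 FPKM in KYSE510 and 21.6 FPKM in TE7 at 6 h, against 14.9 FPKM in KYSE510 and 35.4 FPKM in TE7 at 4 h. All 3 were lower at 6 h in both lines by 0.69 to 0.81 log2 units. PHF23, GTPBP2, ZBED5, C1orf116, PLEKHG3, the lipid phosphatase INPPL1, the connexin GJC1, the apoptosis regulator BFAR and the DNA helicase RECQL5 were lower by at least 0.66 log2 units in each line.

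Among the genes above their 4 h level was NXF1, the receptor that carries mRNA out of the nucleus (hg19 chr11:62559595-62573774). It had 104 FPKM in KYSE510 and 122 FPKM in TE7 at 6 h, against 74.4 FPKM in KYSE510 and 94.1 FPKM in TE7 at 4 h. Both 6 h libraries stood above both 4 h libraries, and the mean change was 0.43 ± 0.08 log2 units (limma standard error, n = 2 lines), with an adjusted p of 0.421. POLR2A, which encodes the polymerase subunit whose C-terminal domain CDK7 phosphorylates, had 109 FPKM in KYSE510 and 123.3 FPKM in TE7 at 6 h, against 77.9 FPKM in KYSE510 and 98.4 FPKM in TE7 at 4 h. Again both 6 h values lay above both 4 h values.

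MED13 had 25.1 FPKM in KYSE510 and 24.1 FPKM in TE7 at 6 h, against 19.2 FPKM in KYSE510 and 18.5 FPKM in TE7 at 4 h. IER5L, a relative of the immediate-early gene IER5 (hg19 chr9:131937835-131940540), had 15.4 FPKM in KYSE510 and 19.7 FPKM in TE7 at 6 h, against 8.02 FPKM in KYSE510 and 14.1 FPKM in TE7 at 4 h. PTPRK, a receptor-type tyrosine phosphatase, had 15.9 FPKM in KYSE510 and 39.6 FPKM in TE7 at 6 h, against 9.24 FPKM in KYSE510 and 28.7 FPKM in TE7 at 4 h. The 3 genes were higher at 6 h in each line. For MED13 and IER5L both 6 h values lay above both 4 h values, while for PTPRK the KYSE510 value at 6 h lay below the TE7 value at 4 h.

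EID3 had 11.2 FPKM in KYSE510 and 2.50 FPKM in TE7 at 6 h, against 6.40 FPKM in KYSE510 and 0.592 FPKM in TE7 at 4 h. TNFRSF10D, a decoy receptor for the death ligand TRAIL, the ubiquitin ligase scaffold CUL5, the antiproliferative gene TOB1, the microRNA host gene MIR22HG and TMEM238 were higher by 0.31 to 0.51 log2 units in each line. SNHG9 was 0.66 higher in KYSE510 and 0.36 in TE7, and NNAT 0.36 in KYSE510 and 0.84 in TE7. SLC7A5P1 and GPX1P1, higher by 0.32 to 0.98 log2 units, are pseudogenes of SLC7A5 and GPX1, and how reads were split between copy and parent is not known.

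**Figure D1:**
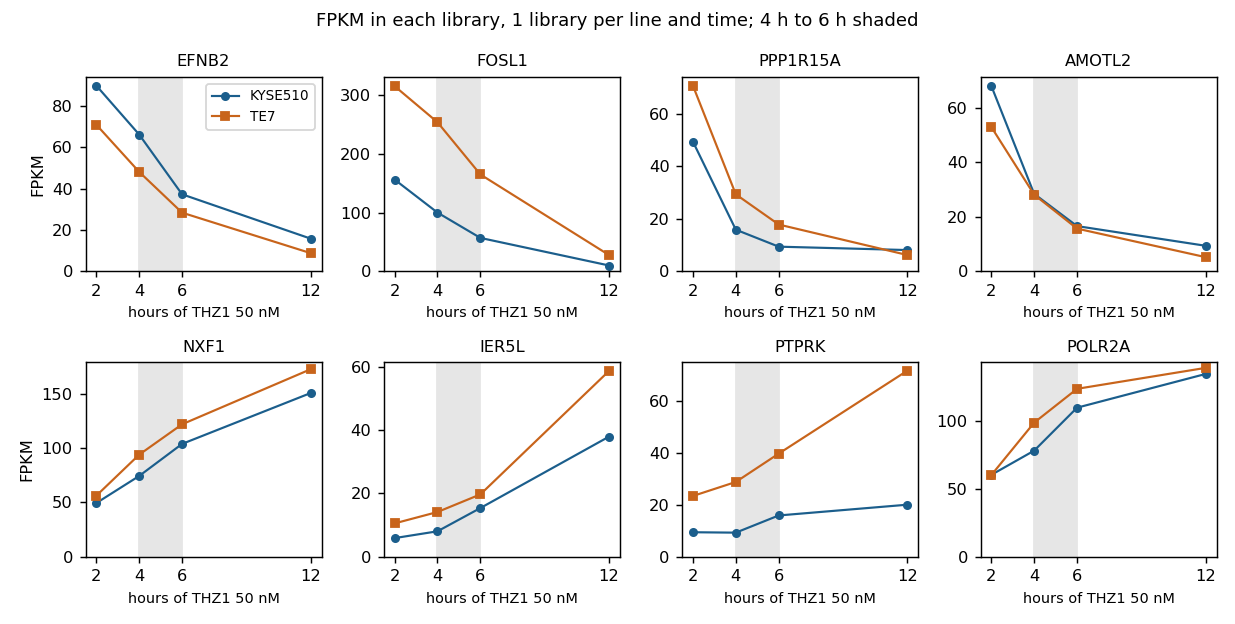
FPKM (vertical axis, linear from 0) against hours of THZ1 at 50 nM (horizontal axis) for 8 genes, with circles for KYSE510 and squares for TE7, 1 library per point and no error bar. In the shaded step EFNB2, FOSL1, PPP1R15A and AMOTL2 stand lower at 6 h than at 4 h in both lines, while NXF1, IER5L, PTPRK and POLR2A stand higher.

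Over all 14797 genes, none passed the limma test for 6 h minus 4 h (0% called), and 1428 had an unadjusted p below 0.05. The smallest adjusted p was 0.421. The fit to the 4 libraries alone, which rests on 1 residual degree of freedom among libraries, called 1091 genes lower (7.37%) and 138 higher (0.933%). All 12 libraries together gave 0 calls, with 155 genes at an unadjusted p below 0.05. A p above the threshold does not show that a gene was the same at both times.

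By the authors' bounds, 1931 of 14716 genes (13.1%) had 6 h bounds wholly below the 4 h bounds in both lines, and 234 (1.59%) wholly above in both. Another 80 parted in opposite directions. Those bounds cover error within a library and not differences between cultures. By size, 247 genes (1.67%) were lower by at least 0.5 log2 units in both lines, 25 (0.169%) were higher and 17 moved in opposite directions. At 1 log2 unit, 5 genes were lower in both lines, 3 higher and 4 opposite.

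These splits depend on how the libraries are scaled. The median change of all tested genes was -0.05 log2 units in KYSE510 and -0.11 in TE7 with FPKM as deposited. It was -0.18 and -0.17 after scaling to equal sums, and 0.08 and 0.06 after upper-quartile scaling. Of the KYSE510 sum at 6 h, 47722 FPKM came from RNU6-1306P, a U6 copy listed at 0 in KYSE510 at 4 h. With that gene left out of the sums and the sums made equal, an alternative chosen after seeing the data, the median change was -0.07 in KYSE510 and -0.17 in TE7. There 2459 genes had bounds wholly lower at 6 h in both lines, 79 wholly higher, and 96.9% of these were lower. Among genes whose bounds parted in the same direction in both lines, 89.2% were lower as deposited, 99.1% after equal sums, 35.2% after median-of-ratios scaling and 18.7% after upper-quartile scaling. Among genes past 0.5 log2 units in both lines, 90.8% were lower as deposited, 96.0% after equal sums, 62.3% after median-of-ratios scaling and 41.1% after upper-quartile scaling. Relative to the median of all tested genes in each line, 101 genes stood at least 0.5 log2 units lower in both lines and 41 stood that much higher. The genes described above as lower or higher at 6 h, from EFNB2 to GPX1P1, kept their direction in both lines under every scaling tried. The cell type markers are not among them. The mean change of EFNB2 ranged from -0.89 to -0.58 log2 units.

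**Figure D2:**
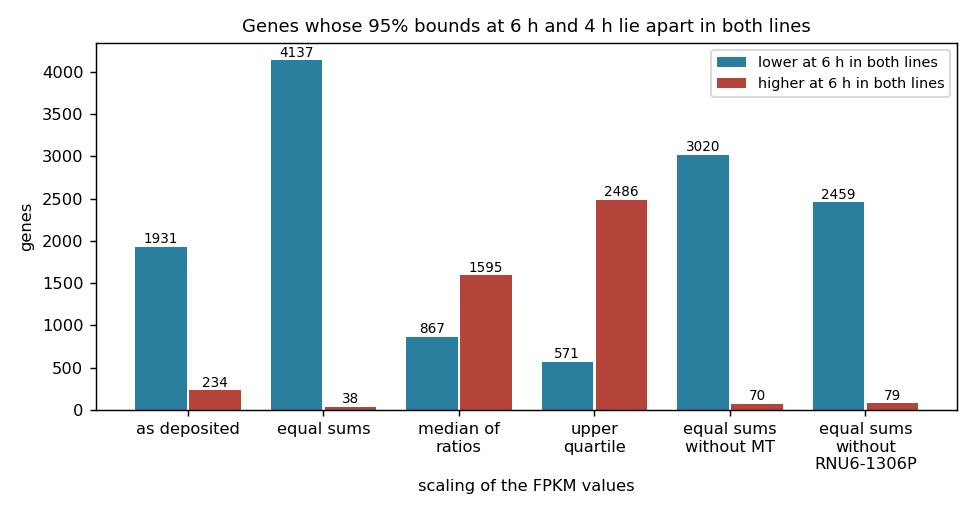
Number of genes (vertical axis) whose 95% bounds at 6 h lie wholly below or wholly above those at 4 h in both lines, for 6 scalings of the FPKM values (horizontal axis). Lower genes number 1931 and higher genes 234 as deposited, while upper-quartile scaling gives 571 lower and 2486 higher.

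In TE7 the mitochondrially encoded genes moved with the sums. They held 18.9% of summed FPKM at 6 h and 13.3% at 4 h. MT-CO2, a subunit of cytochrome c oxidase, was listed at 17361 FPKM at 6 h and 11921 FPKM at 4 h in TE7. In KYSE510 12 of the 13 genes were listed at or near 0 at both times and MT-ATP6 at 71.7 FPKM at 6 h and 62.1 FPKM at 4 h. Since every cell uses these genes, the KYSE510 values are only listed here. With these genes left out of the sums and the sums made equal, 3020 genes had bounds wholly lower at 6 h in both lines and 70 wholly higher.

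The lines moved alike for most expressed protein-coding genes. Across the 8549 with a mean of at least 5 FPKM, the 6 h minus 4 h changes in KYSE510 and TE7 correlated at r = 0.632 and rho = 0.629, and 69.9% had the same sign. Over all 14797 tested genes r was 0.341 and rho 0.503, and over the 14702 outside small RNA classes r was 0.411. Genes are not independent replicates, the libraries of a line share that line, and a shift in scale between 2 libraries enters all genes alike. The standard deviation of the change across the 8549 genes was 0.20 log2 units in KYSE510 and 0.20 in TE7, and that of the difference between the lines 0.17. Of the genes at least 0.5 log2 units lower in 1 line, 33.4% of those in KYSE510 and 29.9% of those in TE7 were also that much lower in the other.

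**Figure D3:**
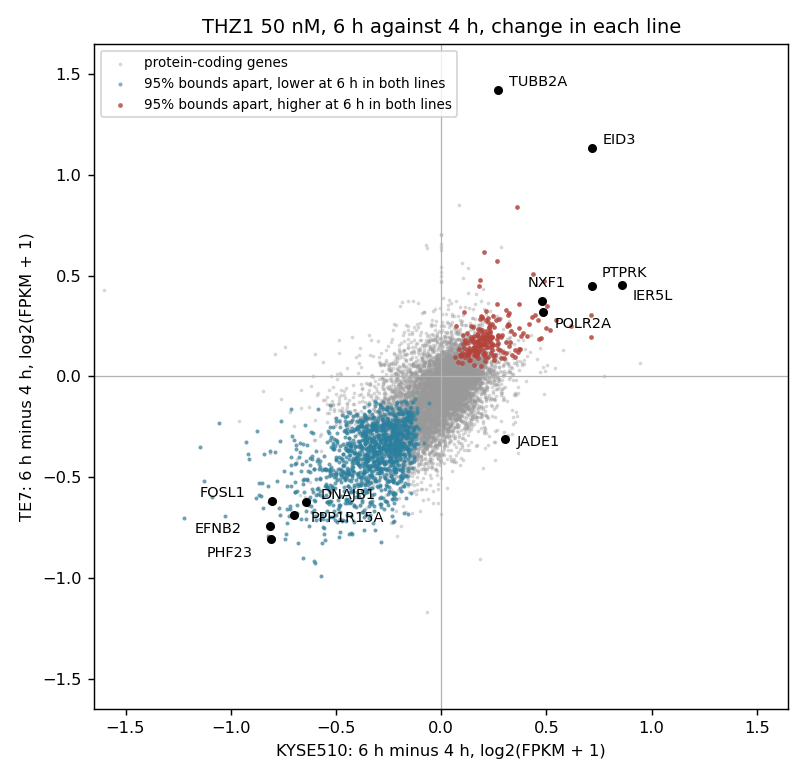
Change from 4 h to 6 h in log2(FPKM + 1), KYSE510 on the horizontal and TE7 on the vertical axis, for 8549 protein-coding genes with a mean of at least 5 FPKM, grey, with genes whose 95% bounds lie apart in both lines in blue (lower) or red (higher) and 12 named genes in black. Points follow the diagonal (r = 0.632), and the blue cloud is larger than the red with FPKM as deposited; 1 gene beyond 1.6 log2 units is drawn at that value.

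Other genes went against this. Of the 14797 tested genes 4438 had changes of opposite sign in the 2 lines. For 105 both changes reached 0.25 log2 units in opposite directions, and for 17 both reached 0.5. The 8 genes named here were taken among those with a mean of at least 5 FPKM, clone-type names left out. Ranked by the smaller of the 2 changes, they were IMMP1L, HNRNPA1P33, SCARNA9, PIGL, JADE1, DHRSX, ANK1 and SUSD4. JADE1, which encodes a subunit of the HBO1 acetyltransferase complex, had 7.56 FPKM in KYSE510 and 4.76 FPKM in TE7 at 6 h, against 5.93 FPKM in KYSE510 and 6.14 FPKM in TE7 at 4 h. It was higher at 6 h in KYSE510 and lower in TE7, with bounds apart in each. The difference between the lines was not tested, since each line has 1 library per time.

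The step was set against the step before it. The change from 4 h to 6 h minus the change from 2 h to 4 h gave 0 of 14797 genes past the limma threshold and 107 at an unadjusted p below 0.05. These steps share the 4 h libraries, so their values are only placed side by side. EFNB2 had 71.0 FPKM at 2 h, 48.1 at 4 h, 28.4 at 6 h and 8.79 at 12 h in TE7, and 89.9, 66.2, 37.3 and 15.8 FPKM at these times in KYSE510. PPP1R15A had 49.5 FPKM at 2 h, 15.9 at 4 h, 9.41 at 6 h and 8.11 at 12 h in KYSE510, and 70.8, 29.4, 17.8 and 6.21 FPKM in TE7. EFNB2 was lower by a like FPKM in both steps, while most of the difference in PPP1R15A lay before 4 h. NXF1 had 49.4 FPKM at 2 h, 74.4 at 4 h, 104 at 6 h and 151 at 12 h in KYSE510, and 56.2, 94.1, 122 and 173 FPKM in TE7, higher at each later time.

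The 2 h and 12 h libraries take no part in the 6 h minus 4 h difference. Of the 247 genes at least 0.5 log2 units lower at 6 h in both lines, 236 (95.5%) were lower at 12 h than at 2 h in both lines, against 61.8% of all tested genes. Of the 25 genes that much higher, 21 (84.0%) were higher at 12 h than at 2 h in both, against 17.7% of all. Across the 8549 protein-coding genes the 6 h minus 4 h change correlated with the 12 h minus 2 h change at r = 0.756 in KYSE510 and 0.756 in TE7; these points share the line but no library. The median FPKM of the 247 genes was 10.8 at 2 h, 7.02 at 4 h, 4.12 at 6 h and 1.66 at 12 h in KYSE510, and 9.91, 6.22, 3.47 and 2.15 in TE7.

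**Figure D4:**
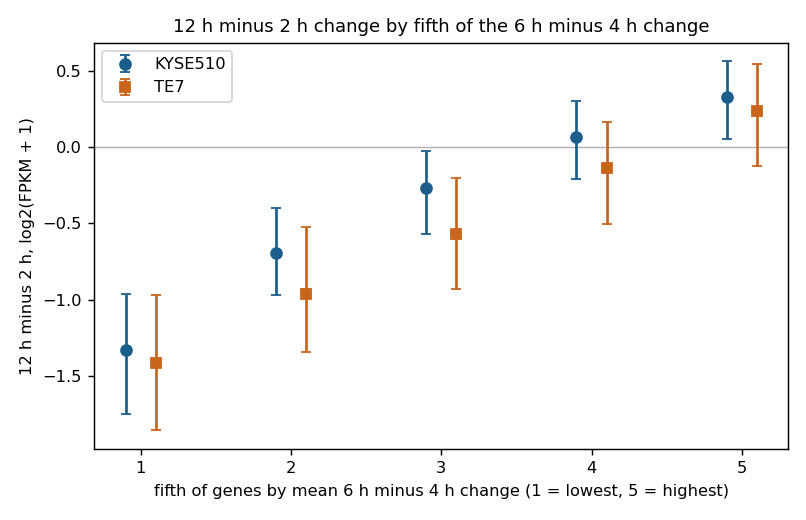
Median 12 h minus 2 h change in log2(FPKM + 1) (vertical axis; bars span the 25th to 75th percentile) for 5 equal groups of the 8549 protein-coding genes ranked by their mean 6 h minus 4 h change (horizontal axis), circles for KYSE510 and squares for TE7. The lowest group has medians of -1.33 in KYSE510 and -1.42 in TE7, and the highest group 0.33 and 0.24.

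Immediate-early genes and the feedback regulators of MAPK signalling stood below the other genes, more so in KYSE510. Of 33 tested immediate-early genes, whose transcripts are induced within minutes and decay fast, 14 (42.4%) had bounds lower at 6 h in both lines and 1 higher, against 13.1% and 1.59% of all genes. Their median change was -0.38 log2 units in KYSE510 and -0.23 in TE7, which is 0.33 and 0.13 below the median of all tested genes and negative under every scaling. No member passed the limma test over the 8 libraries, which holds for all lists that follow. The transcription factor gene EGR3 had 1.67 FPKM in KYSE510 and 1.49 FPKM in TE7 at 6 h, against 4.19 FPKM in KYSE510 and 2.83 FPKM in TE7 at 4 h. The nuclear receptor gene NR4A1 had 7.55 FPKM in KYSE510 and 8.36 FPKM in TE7 at 6 h, against 17.9 FPKM in KYSE510 and 10.9 FPKM in TE7 at 4 h. Both lie below both of their 4 h values, and in both genes KYSE510 differed more. In the preceding step, from 2 h to 4 h, the list's median change was -1.08 in KYSE510 and -0.55 in TE7.

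Of 19 MAPK feedback genes, 9 (47.4%) had bounds lower in both lines and 0 higher, against the same 13.1% and 1.59% of all genes, with medians of -0.37 in KYSE510 and -0.26 in TE7. PHLDA1, DUSP5, a phosphatase of ERK, and ERRFI1, an inhibitor of the EGF receptor, were lower by 0.55 to 0.69 log2 units in KYSE510 and by 0.36 to 0.46 in TE7. The 6 EGF receptor ligands tested had 0 with bounds apart in both lines, with medians of -0.12 in KYSE510 and -0.11 in TE7, and their direction flipped with the scaling.

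Of 18 NF-kB target genes 5 (27.8%) had bounds lower in both lines and 2 (11.1%) higher, against 13.1% and 1.59% of all genes. The chemokine gene IL8 had 9.10 FPKM in KYSE510 and 9.86 FPKM in TE7 at 6 h, against 20.5 FPKM in KYSE510 and 15.4 FPKM in TE7 at 4 h. CXCL1, another chemokine gene, had 21.3 FPKM in KYSE510 and 13.4 FPKM in TE7 at 6 h, against 33.5 FPKM in KYSE510 and 23.1 FPKM in TE7 at 4 h. Both were lower in each line. Among 22 interferon response genes 4 (18.2%) were lower and 2 (9.09%) higher, the lower share near that of all genes. IRF1 had 3.06 FPKM in KYSE510 and 4.21 FPKM in TE7 at 6 h, against 4.69 FPKM in KYSE510 and 8.07 FPKM in TE7 at 4 h. IFI6 went the other way, by 0.26 log2 units in KYSE510 and 0.57 in TE7.

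In lists of survival and stress, counts of genes with bounds lower in both lines stand against 13.1% of all genes. Of 10 apoptosis inhibitors 4 were lower and 0 higher, with medians of -0.28 in KYSE510 and -0.30 in TE7, negative under every scaling. MCL1, an anti-apoptotic BCL2 relative with a short-lived mRNA, had 68.6 FPKM in KYSE510 and 149 FPKM in TE7 at 6 h, against 110.0 FPKM in KYSE510 and 194 FPKM in TE7 at 4 h. BCL2L2 had 21.8 FPKM in KYSE510 and 17.2 FPKM in TE7 at 6 h, against 28.7 FPKM in KYSE510 and 25.5 FPKM in TE7 at 4 h. Each line was lower at 6 h for both genes, and XIAP was lower by 0.29 log2 units in KYSE510 and 0.60 in TE7. Of 19 apoptosis promoters 4 (21.1%) had bounds lower in both lines and 0 higher, with medians of -0.08 in KYSE510 and -0.27 in TE7. The integrated stress and unfolded protein list had 10 of 24 (41.7%) lower and 1 higher. In it CHAC1, an enzyme that degrades glutathione, was lower by 0.55 log2 units in KYSE510 and 1.21 in TE7, CEBPB by 0.65 and 0.57, and DDIT3 (CHOP) by 0.45 and 0.63. The p53 target list had 10 of 23 (43.5%) lower and 0 higher, among them the kinase gene PLK3 at 2.50 FPKM in KYSE510 and 3.47 FPKM in TE7 at 6 h, against 4.06 FPKM in KYSE510 and 8.84 FPKM in TE7 at 4 h. With the scaling the median of the apoptosis promoters changed sign in KYSE510 alone. Those of the stress genes and p53 targets did so in TE7 alone, and that of the interferon response genes in both lines.

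Genes of DNA repair by homologous recombination and the Fanconi pathway, known to need CDK12 for full expression, were lower in value in both lines for 31 of 34 members, against 49.9% of all tested genes. Of these 34, 7 (20.6%) had bounds apart in both lines, all lower, against 13.1% of all genes, and the medians were -0.18 in KYSE510 and -0.27 in TE7, negative under every scaling. The helicase gene BLM had 2.12 FPKM in KYSE510 and 5.28 FPKM in TE7 at 6 h, against 3.62 FPKM in KYSE510 and 10.2 FPKM in TE7 at 4 h. FANCE, of the Fanconi core complex, had 4.39 FPKM in KYSE510 and 2.63 FPKM in TE7 at 6 h, against 6.75 FPKM in KYSE510 and 5.08 FPKM in TE7 at 4 h. XRCC2, a recombination factor, was lower by 0.68 log2 units in KYSE510 and 0.58 in TE7. For these 3 genes each line was lower at 6 h.

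Cell-cycle lists stood below the median of all genes, by 0.15 log2 units in TE7 and by 0.02 to 0.07 in KYSE510. Of 30 mitosis genes 10 (33.3%) had bounds lower in both lines and 0 higher, against 13.1% and 1.59% of all genes, with medians of -0.12 in KYSE510 and -0.25 in TE7. Of 31 genes of the G1/S transition and replication 9 were lower and 0 higher, with medians of -0.07 in KYSE510 and -0.26 in TE7. E2F1, which drives genes of the S phase, had 21.0 FPKM in KYSE510 and 33.1 FPKM in TE7 at 6 h, against 29.1 FPKM in KYSE510 and 55.1 FPKM in TE7 at 4 h. The cyclin E gene CCNE1 and the mitotic kinase gene AURKA were lower by 0.34 to 0.45 log2 units in each line. In KYSE510 the medians of both lists turned positive under upper-quartile scaling, at 0.05 for mitosis and 0.10 for G1/S. That of G1/S was also positive there under median-of-ratios scaling, at 0.04.

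C2H2 zinc finger genes, the largest family of transcription factors in human, had medians below that of all genes in both lines. Of 353 tested, 258 were lower in value in both lines and 21 higher, against 49.9% and 17.4% of all tested genes. Of the 352 with usable bounds 83 (23.6%) were lower in both lines and 2 (0.568%) higher, against 13.1% and 1.59% of all genes. The medians were -0.21 in KYSE510 and -0.24 in TE7, negative under every scaling. ZNF274, which recruits a histone methyltransferase to zinc finger gene clusters, had 3.04 FPKM in KYSE510 and 2.12 FPKM in TE7 at 6 h, against 6.08 FPKM in KYSE510 and 3.97 FPKM in TE7 at 4 h. ZNF830 had 2.24 FPKM in KYSE510 and 2.48 FPKM in TE7 at 6 h, against 4.797 FPKM in KYSE510 and 4.21 FPKM in TE7 at 4 h. ZNF692 was lower by 0.63 log2 units in KYSE510 and 0.64 in TE7. All 3 were lower in both lines. Of 17 chromatin silencing cofactors 7 (41.2%) had bounds lower in both lines and 0 higher, among them the HUSH subunit FAM208A and the H3K9 methyltransferase SUV39H1, each 0.44 to 0.54 log2 units lower in each line.

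**Figure D5:**
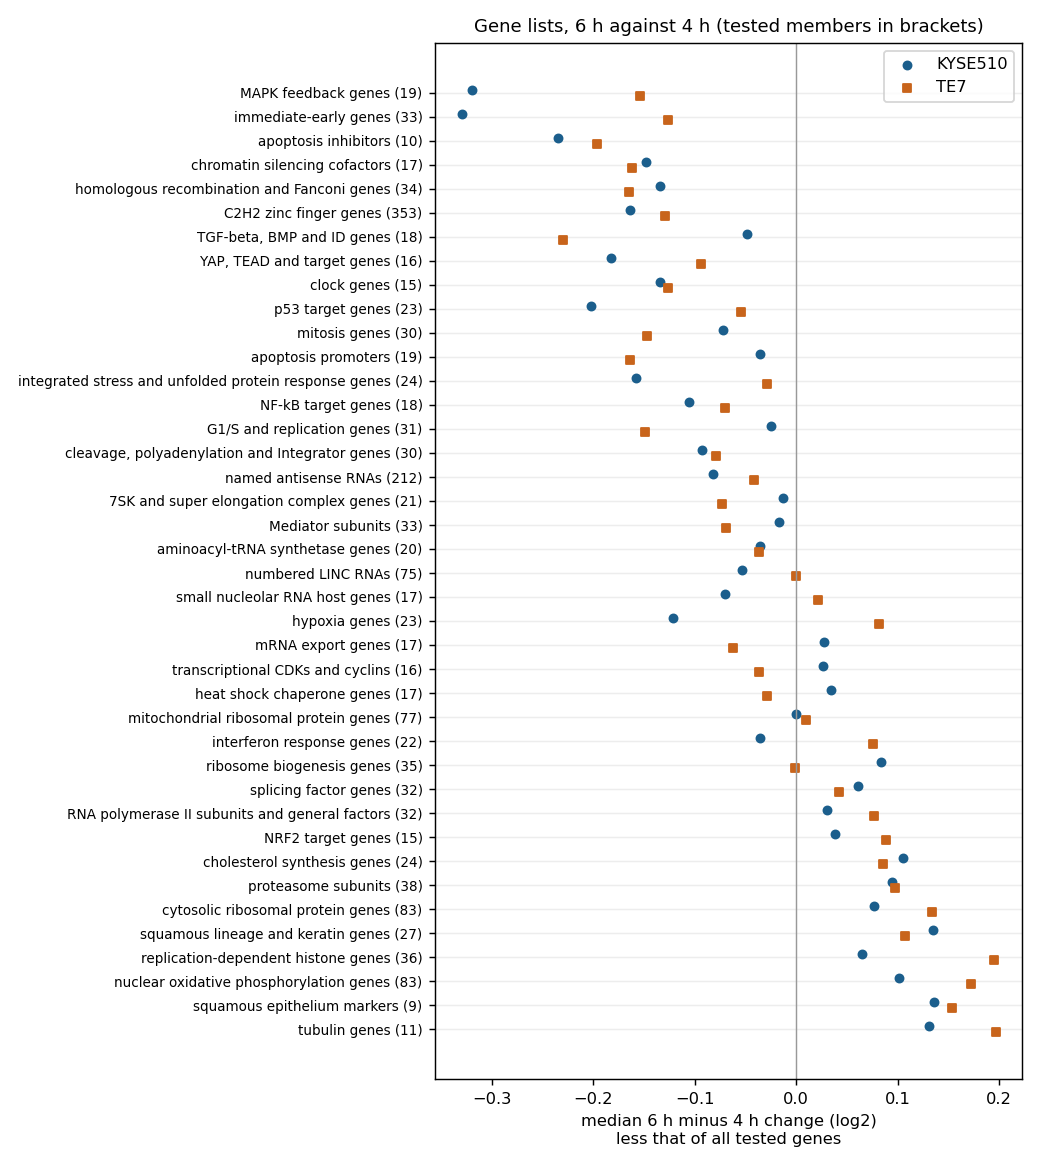
Median 6 h minus 4 h change of each gene list with at least 9 tested members, less the median of all tested genes in the same line (horizontal axis, log2 units; lists down the vertical axis), circles for KYSE510 and squares for TE7. In KYSE510 the immediate-early genes (-0.33) and MAPK feedback genes (-0.32) lie furthest to the left, and tubulin, oxidative phosphorylation and ribosomal protein genes lie to the right in both lines.

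The machinery of transcription held genes of both directions. CDK7, the main target of THZ1, had 24.6 FPKM in KYSE510 and 22.3 FPKM in TE7 at 6 h, against 25.2 FPKM in KYSE510 and 24.6 FPKM in TE7 at 4 h, and the bounds of the 2 times overlapped in both lines. Its direction, and that of CDK12 in KYSE510, turned with the scaling. CDK12 had 23.7 FPKM in KYSE510 and 13.2 FPKM in TE7 at 6 h, against 23.1 FPKM in KYSE510 and 16.6 FPKM in TE7 at 4 h, with bounds apart in TE7 alone. CDK13 had 6.93 FPKM in KYSE510 and 4.36 FPKM in TE7 at 6 h, against 9.15 FPKM in KYSE510 and 6.02 FPKM in TE7 at 4 h, and its bounds lay apart in both lines. CDK9, the kinase of P-TEFb, was lower by 0.36 log2 units in KYSE510 and 0.57 in TE7, and MEPCE, which caps the 7SK RNA that holds P-TEFb inactive, by 0.86 and 0.53. Of 16 transcriptional CDKs and cyclins 3 (18.8%) were lower by bounds and 1 higher, against 13.1% and 1.59% of all genes. Among 7SK and super elongation complex genes with usable bounds 2 of 20 (10%) were lower and 0 higher.

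Among 32 RNA polymerase II subunits and general factors 5 (15.6%) had bounds lower in both lines and 3 (9.38%) higher. Over all genes these shares were 13.1% and 1.59%, against which the lists below also stand. POLR2A stood above its 4 h level, while the TFIID subunit TAF7 was lower by 0.64 log2 units in KYSE510 and 0.34 in TE7. Mediator had 8 of 33 subunits (24.2%) lower and 1 higher. MED13 stood above its 4 h level and MED7 0.84 below it in KYSE510 and 0.59 in TE7. Of 30 cleavage, polyadenylation and Integrator genes 10 (33.3%) were lower and 2 higher, with the cleavage stimulation factor genes CSTF1 and CSTF3 lower by 0.44 to 0.71 log2 units in each line. Of 32 splicing factor genes 5 (15.6%) were lower and 1 higher. Of 17 mRNA export genes 3 (17.6%) were lower and 1, NXF1, higher. The lower shares of the polymerase, splicing and export lists lay near that of all genes. The medians of all 6 lists changed sign with the scaling.

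The list of squamous lineage and keratin genes held members of both directions. TP63, the master regulator of squamous epithelium, had 50.8 FPKM in KYSE510 and 21.2 FPKM in TE7 at 6 h, against 71.4 FPKM in KYSE510 and 33.5 FPKM in TE7 at 4 h, with bounds apart in both lines. SOX2, a transcription factor amplified in many squamous tumours, had 23.3 FPKM in KYSE510 and 4.33 FPKM in TE7 at 6 h, against 42.7 FPKM in KYSE510 and 4.60 FPKM in TE7 at 4 h, with bounds apart in KYSE510 alone. GRHL2 was lower by 0.36 log2 units in KYSE510 and 0.65 in TE7. The keratin gene KRT17 had 479.8 FPKM in KYSE510 and 876 FPKM in TE7 at 6 h, against 431 FPKM in KYSE510 and 799 FPKM in TE7 at 4 h, higher in both lines with FPKM as deposited and at 0.00 in KYSE510 after equal sums that include RNU6-1306P. Over the 27 tested genes of this list 4 (14.8%) had bounds higher in both lines and 1 (3.70%) lower, against 1.59% and 13.1% of all genes, and the medians were 0.09 in KYSE510 and 0.00 in TE7, or 0.13 and 0.11 above the median of all genes; their sign turned with the scaling.

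Of the 5 super-enhancer genes taken from the study itself, a choice that gives no independent evidence of direction, DNAJB1 alone had bounds apart in both lines. DNAJB1, a co-chaperone of HSP70, had 56.0 FPKM in KYSE510 and 31.8 FPKM in TE7 at 6 h, against 87.9 FPKM in KYSE510 and 49.5 FPKM in TE7 at 4 h. PAK4, RUNX1, YAP1 and SREBF2 had mean changes of -0.14, -0.26, -0.17 and 0.07 log2 units, and the direction of each turned with the scaling in at least 1 line. RUNX1 had 11.7 FPKM in KYSE510 at 6 h and 17.3 FPKM at 4 h, and 29.9 FPKM in TE7 at both times. Of 16 genes of YAP, TEAD and their targets 6 (37.5%) had bounds lower in both lines and 0 higher, against 13.1% and 1.59% of all genes, with medians of -0.23 in KYSE510 and -0.20 in TE7. AMOTL2 is one of them. TGIF1, a repressor in TGF-beta signalling, was lower by 0.71 log2 units in KYSE510 and 0.54 in TE7. Of 18 TGF-beta, BMP and ID genes 4 (22.2%) had bounds lower in both lines and 3 (16.7%) higher, against 13.1% and 1.59% of all genes.

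Genes of the cytosolic ribosome and of oxidative phosphorylation had medians above that of all genes in both lines. Protein-coding genes with a mean from 39.4 FPKM upward, whatever their list, had medians of 0.04 in KYSE510 and -0.01 in TE7. Whether these lists differ from other genes of like level was not tested. Of 83 cytosolic ribosomal protein genes 8 (9.64%) had bounds higher in both lines and 0 lower, against 1.59% and 13.1% of all genes, and 54 were higher in value in both, against 17.4% of all. Their medians were 0.03 in KYSE510 and 0.03 in TE7, or 0.08 and 0.13 above the median of all genes. They turned negative under equal sums, and with RNU6-1306P left out of the sums they were 0.0067 in KYSE510 and -0.053 in TE7. RPLP1, a protein of the ribosomal stalk, had 932 FPKM in KYSE510 and 1796 FPKM in TE7 at 6 h, against 752 FPKM in KYSE510 and 1597 FPKM in TE7 at 4 h. Of 83 nuclear genes of oxidative phosphorylation 50 were higher in value in both lines, against 17.4% of all genes, and of the 82 with usable bounds 5 (6.10%) were higher and 2 (2.44%) lower. Their medians were 0.05 in KYSE510 and 0.07 in TE7, both negative under equal sums, and 0.032 and -0.015 with RNU6-1306P left out of the sums. NDUFC2, of complex I, had 150.5 FPKM in KYSE510 and 277 FPKM in TE7 at 6 h, against 115.6 FPKM in KYSE510 and 240.4 FPKM in TE7 at 4 h. FTH1, the ferritin heavy chain and an NRF2 target, had 1558 FPKM in KYSE510 and 2206 FPKM in TE7 at 6 h, against 1433 FPKM in KYSE510 and 1901 FPKM in TE7 at 4 h. Each of these genes was higher at 6 h in both lines as deposited, and FTH1 was lower in KYSE510 after equal sums that include RNU6-1306P. Of 77 mitochondrial ribosomal protein genes 11 (14.3%) had bounds lower in both lines and 0 higher, with medians of -0.05 in KYSE510 and -0.10 in TE7. Of 20 aminoacyl-tRNA synthetase genes 4 were lower and 0 higher, with medians of -0.08 in KYSE510 and -0.14 in TE7.

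Tubulin genes were higher in value in both lines for 8 of 11 members, against 17.4% of all genes, and 2 (18.2%) were higher by bounds, against 1.59%. Their median in KYSE510 was 0.08, negative under equal sums and 0.063 with RNU6-1306P left out of the sums. TUBA1C had 394 FPKM in KYSE510 and 604 FPKM in TE7 at 6 h, against 338 FPKM in KYSE510 and 494 FPKM in TE7 at 4 h. TUBB2A had 27.9 FPKM in KYSE510 and 17.2 FPKM in TE7 at 6 h, against 23.0 FPKM in KYSE510 and 5.78 FPKM in TE7 at 4 h. TUBB2B had 1.02 FPKM in KYSE510 and 11.2 FPKM in TE7 at 6 h, against 0.975 FPKM in KYSE510 and 0.535 FPKM in TE7 at 4 h, and 6.43 FPKM at 2 h and 0.849 FPKM at 12 h in TE7. In TE7 both genes were lower at 4 h than at 2 h and at 6 h. These paralogs are near-identical, and reads may be shared between them. Of 36 replication-dependent histone genes 13 were higher and 5 lower in value in both lines, against 17.4% and 49.9% of all genes. By bounds 0 were higher and 0 lower, against 1.59% and 13.1%.

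The change had little relation to locus length, while the share of genes well below their 4 h level varied with length, exon number and level. Across the 8549 protein-coding genes the change correlated with log10 locus length at r = 0.04 in KYSE510 and -0.01 in TE7. The share of genes at least 0.5 log2 units lower in both lines was 2.51% in the shortest of 5 equal groups by locus length (up to 10164 bases) and 0.526% in the longest (from 86072 bases). By exon number that share was 2.50% in the lowest of 5 groups and 0.835% in the highest. By level it was 1.67% among protein-coding genes with a mean of up to 3.17 FPKM. It was 4.05% from 3.17 to 8.19 FPKM and 0.209% from 39.4 FPKM upward. The median change of protein-coding genes was -0.11 in KYSE510 and -0.13 in TE7 at mean levels up to 3.17 FPKM. It was -0.14 in KYSE510 and -0.19 in TE7 from 3.17 to 8.19 FPKM, and 0.04 and -0.01 from 39.4 FPKM upward. Processed pseudogenes had medians of 0.02 in KYSE510 and 0.00 in TE7 (335 genes), and lincRNA genes -0.09 and -0.09 (423 genes).

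Promoter sequence was at hand for 7075 of the 8549 genes. TATAAA stood in 5.14% of these promoters, in 50 of 1143 genes (4.37%) whose bounds were lower at 6 h in both lines and in 12 of 150 (8%) whose bounds were higher. CCAAT stood in 37.3% of all, 37.4% of the lower and 38% of the higher genes. CCGGAAG stood in 22.2% of all, 23.1% of the lower and 12.0% of the higher genes, GGGCGG in 73.4%, 72.0% and 76.7%, TGACGTCA in 3.56%, 4.29% and 4%, and TGACTCA in 2.71%, 2.62% and 4%. The shares in the lower genes lay within 1.5 times those of all genes, and the higher genes are few. Such matches are descriptions of the window and no test was made.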

How the data were processed

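RNA-seq libraries of KYSE510 and TE7 were analysed from the FPKM values and 95% bounds per gene that the authors deposited. Per the submitters' processing notes STAR, Cufflinks and hg19 were used; their versions are unknown here. Loci of 1 gene identifier were summed. Changes were taken on log2(FPKM + 1), which understates those of low genes. The 14797 genes that reached 1 FPKM in 2 or more of the 8 libraries at 50 nM entered a linear model (limma 3.58.1, R 4.3.3) with a variance trend, a block for cell line and Benjamini-Hochberg adjustment at 0.05. The lines are the replicates (n = 2). Nothing in the labels says that libraries came from separate cultures, so the p-values reflect the spread among these samples, which may be technical. Replicate numbers mark the line in every group, which pairs the samples. The correlation of same-line deviations from the group means ranged from 0.869 to 0.966 over 12 pairs. With 2 libraries per group the deviations of the 2 lines mirror each other, so the pairs of TE7 repeat those of KYSE510. These values reflect the difference between the lines and show no pairing beyond the line.

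The authors' bounds come from their FPKM estimates, and bounds were called apart where those of 6 h and 4 h did not overlap. Depth is unknown here. Named genes were the 15 furthest up, the 15 furthest down and the 8 with the largest opposite changes, by the smaller change of the 2 lines. These were taken among genes with a mean of at least 5 FPKM and no clone-type name. CDK7, CDK12, CDK13, 5 super-enhancer genes and up to 4 members per list were named too. MT-CO2, PTPRC, MIR3648 and the RNU6 copies fall outside that rule and were chosen after their values were seen. Members and lists were chosen with earlier results of these data known. Promoters were RefSeq's. Alternatives were the pseudocount, the filter, the scaling, the libraries in the fit, the block, the variance model, the locus choice and leaving out each library. The limma script was tested on simulated data. The vehicle and 200 nM libraries entered only the fit to all 12 libraries. Some genes that the rule names are not reported here.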

Additional observations from a re-analysis of the deposited data

Results flagged for a closer look

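The 8 genes below had the largest changes from 4 h to 6 h in opposite directions, by the smaller of the 2 lines' changes. They were taken among genes with a mean of at least 5 FPKM and no clone-type name. Opposite signs as such were common, at 4438 of 14797 tested genes. With 1 library per line and time the difference was not tested. The change in KYSE510 minus the change in TE7 was -2.07 log2 units for IMMP1L, -1.35 for HNRNPA1P33, -0.97 for SCARNA9, 0.75 for PIGL, 0.62 for ANK1, 0.61 for JADE1, 0.61 for DHRSX and 0.57 for SUSD4. The bounds of the 2 times lay apart in both lines for HNRNPA1P33, JADE1 and ANK1. For PIGL, DHRSX and SUSD4 they did so in TE7 alone, and for IMMP1L and SCARNA9 in neither line. HNRNPA1P33 is a processed copy of HNRNPA1, and reads may be shared between such copies.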

How the results depend on the processing

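The count of genes past the limma threshold for 6 h minus 4 h was 0 with every pseudocount, filter, scaling and variance model tried. It was 1229 (138 higher, 1091 lower) in the fit to the 4 libraries alone and 0 to 2 when single libraries were left out; the 2 were RNU6-42P and RNU6-5P, without TE7 at 4 h. The comparison of steps likewise ranged from 0 to 2. Without the replicate block for cell line 0 genes passed and 88 had an unadjusted p below 0.05, so the pairing changed no call.

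Genes past 1 log2 unit in both lines numbered 28 lower, 24 higher and 17 opposite with a pseudocount of 0.1, 0 in each class with 5, and 3, 1 and 0 among genes with a mean of at least 5 FPKM; 2 were lower under median-of-ratios and under upper-quartile scaling. Genes past 0.5 log2 units numbered 703 lower, 98 higher and 93 opposite with a pseudocount of 0.1, 25, 3 and 3 with 5, and 138, 8 and 1 with a mean of at least 5 FPKM. By scaling they were 531 lower under equal sums, 66 lower and 40 higher under median-of-ratios, and 39 lower, 56 higher and 11 opposite under upper-quartile scaling. Genes with bounds apart numbered 4137 lower, 38 higher and 40 opposite under equal sums, 867 lower and 1595 higher under median-of-ratios, 571 lower and 2486 higher under upper-quartile scaling, 3020 lower and 70 higher with mitochondrially encoded genes left out of the sums, and 79 higher and 142 opposite with RNU6-1306P left out. The bounds and 0.5 log2 counts under other settings were chosen after seeing the data.

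The median change of all genes was -0.18 in KYSE510 and -0.17 in TE7 under equal sums, 0.027 and 0.015 under median-of-ratios, 0.078 and 0.058 under upper-quartile scaling, 0 and -0.0023 with no filter, -0.065 in TE7 with a pseudocount of 5 -0.18 in KYSE510 with mitochondrially encoded genes left out and -0.17 in TE7 with RNU6-1306P left out. The correlation between the lines was 0.231 with a pseudocount of 0.1 and 0.238 with no filter. The cause was not tested beyond the construction of each setting.

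Of the named genes' values under alternatives, 2126 kept direction and call, 77 passed the threshold and 40 turned round. Under median-of-ratios scaling the mean change turned round to 0.044 for CDK7, 0.10 for PIGL, 0.11 for JADE1. Under upper-quartile scaling the mean change turned round to 0.10 for CDK7, 0.051 for CDK12, 0.046 for PAK4, 0.024 for YAP1, 0.15 for PIGL, 0.17 for JADE1. Under equal sums of FPKM the mean change turned round to -0.042 for SREBF2, -0.052 for HNRNPA1P33, -0.087 for DHRSX, -0.054 for ANK1, -0.078 for SUSD4. Under pseudocount 0.1 the mean change turned round to 0.048 for PIGL. Under pseudocount 5 the mean change turned round to 0.0049 for JADE1, -0.023 for DHRSX, -0.035 for ANK1, -0.025 for SUSD4. With mitochondrially encoded genes left out of the sums the mean change turned round to -0.044 for DHRSX, -0.016 for ANK1, -0.040 for SUSD4. With RNU6-1306P left out of the sums it turned round to -0.029 for DHRSX, -0.0077 for ANK1, -0.027 for SUSD4. Leaving out single libraries gave ranges of -0.42 to 0.54 for HNRNPA1P33, -1.66 to 0.45 for IMMP1L, -0.32 to 0.30 for PIGL, -0.25 to 0.24 for JADE1, -0.23 to 0.26 for DHRSX, -0.22 to 0.28 for ANK1, -0.23 to 0.25 for SUSD4, -0.56 to 0.15 for SCARNA9. The 2 lines and the unknown depth limit every value.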

Other observations

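Lists of non-coding genes varied in their shares. Of 209 named antisense RNAs with usable bounds 14 (6.70%) were lower in both lines and 0 higher, against 13.1% and 1.59% of all genes, and their medians were -0.13 in KYSE510 and -0.15 in TE7, against -0.05 and -0.11 over all genes. Whether counting used strand is not given in the sources used here, so reads of an antisense gene and its partner cannot be told apart. Of 75 numbered LINC RNAs 3 (4.00%) were lower and 0 higher. Of 16 small nucleolar RNA host genes with usable bounds 4 were lower and 0 higher.

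Some small RNA genes had extreme values in a single library. RNU6-1306P, a U6 copy, was listed at 47722 FPKM in KYSE510 at 6 h and at 0 in the other 7 libraries at 50 nM. RNU6-5P was listed at 394 FPKM and RNU6-42P at 197 FPKM in KYSE510 at 6 h, and both at 0 at 4 h. MIR3648 had 1596 FPKM at 6 h and 295 FPKM at 4 h in TE7, and was listed at 0 in KYSE510 at both times.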
